A study of Aspergillus niger with 6 samples.

Results

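The genes described here lie near the ends of the long contigs on which the listed genes of Aspergillus niger are placed. A gene was taken if its start lay within 100 kb of the first position of a contig, called the left end, or if its end lay within 100 kb of the largest gene end of that contig, called the right end. This gave 486 of the 10257 genes listed in the 2 deposited tables, at 16 ends of 8 long contigs, which are contig 1 and unitig_0 to unitig_6. The other 9752 genes of the same contigs are the genes elsewhere, and each end held between 22 and 41 members. No source used here says whether a chromosome ends where these contigs do.

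A. niger is a filamentous fungus used for making citric acid, and all 6 libraries came from strain H915-1 in a citrate fermentation, with no altered gene named in the labels. Pellets were taken at 6, 12, 24, 36 and 48 h with air at 3 vvm (volumes of air per culture volume per minute), and at 48 h with air at 1.5 vvm. Each of these groups is 1 library, so no difference between libraries has a replicate check. The libraries held between 5062817 and 6708034 fragments.

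The outer parts of fungal chromosomes are known as variable regions. In species of Aspergillus they often carry clusters of genes for secondary metabolites, along with transporters and secreted enzymes that are used under particular conditions, and packed chromatin keeps many of them silent. Genes of 1 cluster often lie side by side and are switched on together. The files pair no identifier with a gene name or function, so members are given by position.

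Members were much less expressed than genes elsewhere in each of the 6 libraries. FPKM, which scales fragments to transcript length and to library size, allows levels of different genes to be set side by side. Over the 432 members listed in both tables, the median was 3.20, 2.45, 2.27, 2.44 and 2.82 FPKM over the time course and 5.30 FPKM with 1.5 vvm. Runs of 5 values such as these stand for 6, 12, 24, 36 and 48 h at 3 vvm, in that order. The 9480 genes elsewhere had a median of 22.7 FPKM in the 6 h library, which became 25.7 FPKM by 48 h, with 29.5 FPKM under 1.5 vvm. In bulk pellets, fewer cells expressing a gene and less of its RNA per cell cannot be told apart. The middle 50% of members reached from 0.387 to 16.8 FPKM at 48 h, and those elsewhere from 6.26 to 67.7 FPKM, so the ranges overlapped.

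Many members were close to silent at 3 vvm. Between 31.7% (6 h) and 39.4% (36 h) of the 432 members were below 1 FPKM at 3 vvm, against 11% to 12.4% of genes elsewhere. At 48 h, 59 members were listed at 0 FPKM, or 13.7% against 3.16% elsewhere. At 1.5 vvm 1 member was at 0 and 6.02% were below 1 FPKM, against 1.38% elsewhere. A count of 0 allows up to 3 fragments. Over members with at least 20 fragments in the library, 3 fragments stood for a median of 0.552 FPKM at 6 h and 0.431 at 48 h. For members listed at 0 this limit was not worked out.

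The level climbed with distance from the end. With unlisted values as 0, the median of the mean FPKM over the 6 libraries was 0.600 for genes in the outer 20 kb, 1.40 between 20 and 40 kb, 2.21 between 40 and 60 kb, 4.25 between 60 and 80 kb and 6.87 between 80 and 100 kb. It was 8.31 FPKM between 100 and 200 kb, 14.7 between 200 and 400 kb and 29.7 beyond 1000 kb. In the outer 20 kb 28.6% of genes were listed beside the 1.5 vvm library alone. The 60 genes there that both tables list had medians between 0.763 and 1.69 FPKM at 3 vvm, and the 109 such genes between 80 and 100 kb had 5.17 to 6.93 FPKM. The 100 kb limit therefore cut a gradual slope. The 56 members in the last 10 kb inside the limit had a median of 8.49 FPKM, and the 51 genes in the next 10 kb outside it had 4.15 FPKM.

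**Figure D1:**
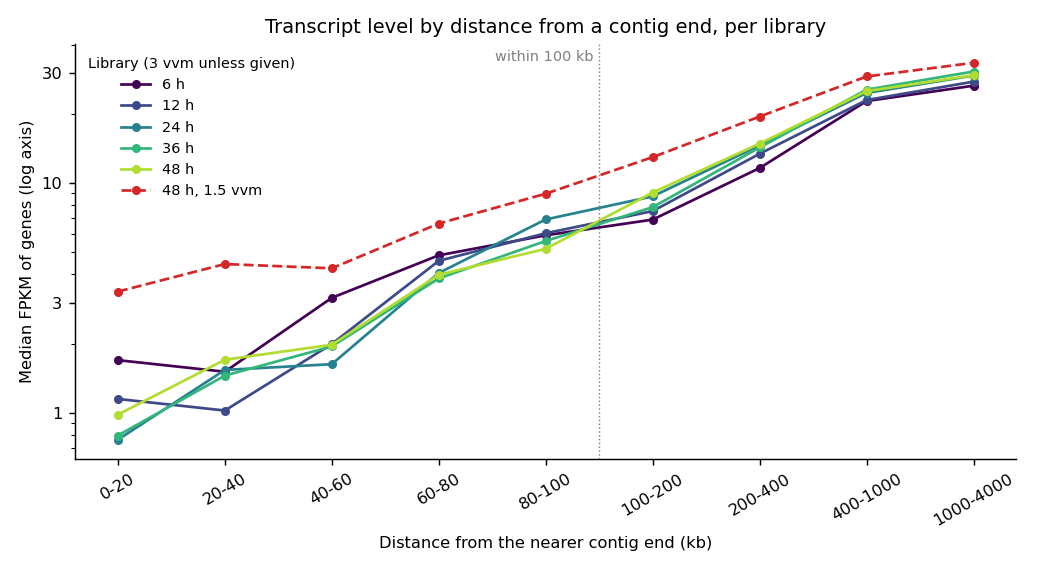
Median FPKM (log axis) of genes listed in both tables against distance from the nearer contig end in kb, with 1 line for each library. In all 6 libraries the lines lie lowest in the outer bins, and the 1.5 vvm library (dashed) lies above the others in the outer 20 kb, at 3.37 FPKM against 0.981 at 48 h and 3 vvm.

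The ends differed in level among themselves. The median FPKM of members listed in both tables was below that of the rest of the contig at 15 of 16 ends in the 6, 24 and 48 h libraries, at 16 in those of 12 and 36 h, and at 14 with 1.5 vvm. The mean FPKM over the 6 libraries was taken for all members of an end, with unlisted values as 0. Its median was lowest at the right end of unitig_1 (0.432 FPKM). It was highest at the right end of unitig_4 (22.2 FPKM), where the rest of the contig had 21.7 FPKM. The order of the highest ends changed between libraries. Among members listed in both tables, the left end of unitig_3 was highest at 6 h, with 15.3 FPKM. The right end of unitig_4 then had 11 FPKM against 19.1 in the rest of its contig. The left end of unitig_6 had medians between 3.64 and 13.7 FPKM at 3 vvm and 44.7 FPKM at 1.5 vvm. Inside the contigs, 334 windows of 100 kb had a median of 28.9 FPKM and a 5th percentile of 2.61 FPKM. By the mean over the 6 libraries, with all members counted, 9 ends lay below that percentile.

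Gene spacing and length differed less than level. End windows held 30.4 listed genes on average, against 28.8 per 100 kb elsewhere. The median member spanned 1350 bp, introns included, against 1498 bp elsewhere. The median gap to the next listed gene was 1013 bp for members and 920 bp elsewhere.

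Members took a small part of the fragments, held mostly by few genes. They held 1.32% of the fragments at 6 h (exact 95% binomial interval 1.31 to 1.33%), 1.56% at 48 h (1.55 to 1.57%) and 1.89% at 1.5 vvm (1.88 to 1.90%). The 10 members with the most fragments carried 48.7% of the members' fragments at 6 h and 55.7% at 48 h. Intervals cover counting error only, and since neighbouring genes are not independent those on shares of genes are too narrow.

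The most abundant members, picked by mean FPKM after the values were seen, followed different courses. The gene on unitig_2 from 4754900 to 4755402 stood at 166, 323, 491, 1421 and 6649 FPKM over the time course and 1458 FPKM with 1.5 vvm. It was highest at 48 h and 3 vvm. The gene on unitig_4 from 3942709 to 3943887 was already at 814 FPKM at 6 h and lay between 1609 and 1857 FPKM from 12 to 48 h, with 2067 FPKM at 1.5 vvm. Another on unitig_4, from 3928753 to 3929823, was at 26.2, 869, 1163, 832 and 662 FPKM over the time course and 1286 FPKM with 1.5 vvm.

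The time course raises the question whether members differed more often than other genes of their level. A 2-fold lower value by 48 h was seen in members 2.09 times as often as in such genes. Of the 433 members in the time course table, 326 had at least 1 FPKM at 6 or 48 h, and 91 of these were at least 2-fold lower on the log2(FPKM + 1) scale, which is 27.9% (23.1 to 33.1%). The share over all genes tested was 12.0%. Other genes of the same contig in the same band of mean FPKM, of 10 bands, gave 13.4%, and 11.4% of all genes elsewhere were lower. A gene that passed through 1 library alone had to differ, so the count was also set against every listed member. The 91 genes were then 21.0% of 433, against 9.88% at the same level.

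The members that were lower were spread over most ends and over all levels. The share lay above that of genes of the same contig and level at 13 of 16 ends. In the higher of both libraries, 29.4% of members at 1 to 10 FPKM were lower, 27.3% of those at 10 to 50 FPKM and 25.3% of those at 50 FPKM or more. The shares elsewhere were 11.7%, 8.31% and 13.9%. With at least 20 fragments in the higher library, a limit chosen after seeing the data, 26.4% were lower against 12.0% at the same level.

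Members that were higher at 48 h stood out less. There were 79 of them, 24.2% (19.7 to 29.3%), where 17.5% of all genes tested were higher and the genes of the same contig and level gave 18.8%. Set against every listed member, the 79 were 18.2% of 433, against 13.7% at the same level and 15.8% elsewhere. Among members with at least 1 FPKM, the share was above that of the level at 9 of 16 ends. Below 10 FPKM in the higher library it was 17.2% against 19.4% elsewhere, and at 50 FPKM or more it was 33.3% against 17.1%. With FPKM rescaled to a common sum, 81 of 325 members were lower (24.9% against 11.2% at the same level) and 87 higher (26.8% against 21.6%). Which direction held more members thus depended on the scaling. The rescaling moved the median log2 change of all genes from 0.04 to 0.18.

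**Figure D2:**
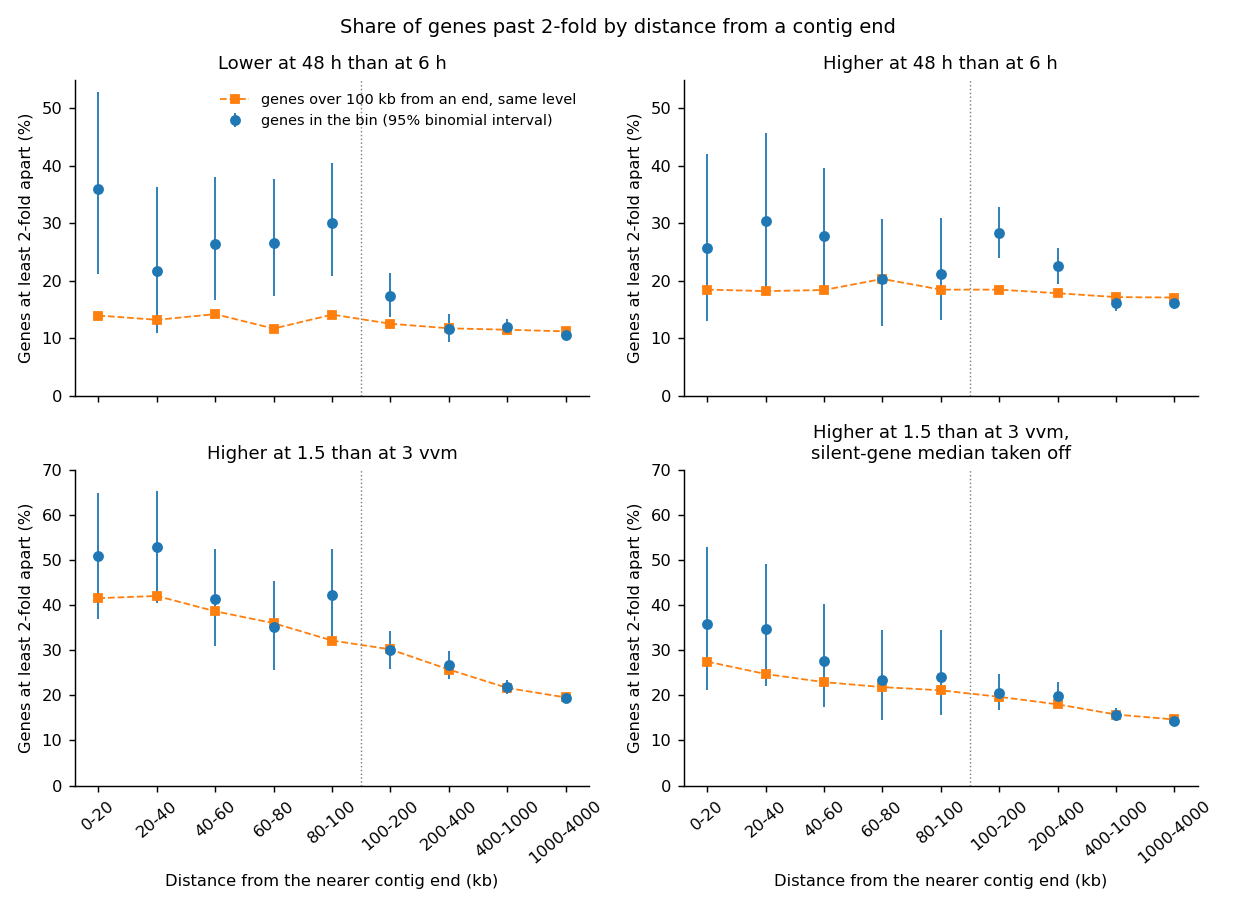
Share of genes at least 2-fold apart (%) against distance from the nearer contig end in kb, with exact 95% binomial intervals, beside the share in genes of the same contig and level that lie over 100 kb from an end. For genes lower at 48 h the points within 100 kb lie between 21.7% and 35.9% where the squares lie between 11.7% and 14.2%, and beyond 200 kb both are between 10.6% and 11.9%.

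The share that was lower showed no steady course within the window, and the intervals of its bins overlapped. It was 35.9% of 39 genes in the outer 20 kb, 21.7% of 46 genes between 20 and 40 kb, and 30% of 90 genes between 80 and 100 kb. Between 100 and 200 kb it was 17.3% against 12.5% at the same level, and between 200 and 400 kb 11.6% against 11.7%. The higher genes had another profile: between 100 and 200 kb, outside the window, 28.2% were higher at 48 h against 18.4% at the same level, beside 24.2% of the members.

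Relative to genes of the same level, the excess of lower members was present by 12 h, and between successive times it was smallest from 36 to 48 h. Relative to 6 h, 60 of 312 members were lower at 12 h (19.2%, with 9.47% at the same level and 7.10% of all genes), 77 of 317 at 24 h (24.3%, 12.5% and 9.62%) and 89 of 325 at 36 h (27.4%, 13.7% and 11.4%). Higher were 39 members at 12 h (12.5%, 7.86% and 7.66%), 57 at 24 h (18%, 11.3% and 11.8%) and 72 at 36 h (22.2%, 18.2% and 17.4%). All of these share the 6 h library. Between 12 and 24 h, 10.1% were lower against 5.58% at the same level and 4.24% of all genes. Between 24 and 36 h the shares were 7.22%, 3.75% and 3.12%, and between 36 and 48 h 3.14%, 2.74% and 2.02%. Higher members made up 9.09%, 11.7% and 4.88% at these steps, against 6.26%, 7.59% and 4.05% at the same level and 5.42%, 5.62% and 2.76% of all genes. With 12 h in place of 6 h as the reference, 43 of 302 members (14.2%) were lower at 48 h, against 6.30% at the same level and 5.39% of all genes, and 50 (16.6%) were higher, against 13.4% and 11.5%.

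The 91 lower members were low by 48 h and mostly highest at 6 h. Their median was 9.09, 4.17, 3.15, 1.82 and 1.18 FPKM over the time course and 5.42 FPKM with 1.5 vvm. Of these, 86 were highest at 6 h among the 5 times, 18 were listed at 0 at 48 h, and 43 had at least 10 FPKM at 6 h. The 79 higher members had a median of 3.00, 11.4, 12.8, 17.2 and 19.9 FPKM over the time course and 28.2 FPKM with 1.5 vvm. Both sets were chosen on the 6 and 48 h values, which are given as a description.

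Recovered fragments were also tested for a trend along the 5 times with edgeR's quasi-likelihood test, as an alternative with a spread taken from the deviation of libraries from a line in log2 time. With p adjusted by Benjamini-Hochberg and a limit of 0.05, 42 of 319 members tested fell (13.2%) and 29 rose (9.09%). Over all genes tested 9.55% fell and 9.73% rose, and the genes of the same contig and level gave 7.93% and 8.46%. Fewer genes of any kind were called without certain libraries. Without 6 h 7 members fell (2.36%, against 1.0% elsewhere) and 4 rose (1.35% against 1.90%). Without 36 h 15 fell (4.90% against 1.79%) and 7 rose (2.29% against 2.53%), and without 48 h 23 fell (7.62% against 3.07%) and 9 rose (2.98% against 3.25%). With time in hours 15 fell (4.70% against 1.83%) and 8 rose (2.51% against 2.94%). Without 12 h the members that fell were 44 (14.5% against 9.01%) and those that rose 26 (8.55% against 9.15%), and without 24 h 47 (15.4% against 8.45%) and 27 (8.85% against 9.65%).

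By time of highest value, members stood apart most at 6 h. Of 341 members with at least 1 FPKM at some time, 89 ranged over 4-fold or more between the times, which is 26.1% (21.5 to 31.1%), against 13.8% at the same level and 13.3% of all genes. The highest value came at 6 h in 39 of these 89 members and at 48 h in 17, while the 12, 24 and 36 h libraries were the highest for 7, 11 and 15. The genes highest at 6 h made up 11.4% of the 341 members (8.26 to 15.3%), against 4.28% at the same level and 3.80% of all genes, and the share was above that of the level at 14 of 16 ends. Those highest at 48 h were 4.99% of members (2.93 to 7.86%), against 4.29% at the same level and 4.28% of all genes. For 12, 24 and 36 h, 2.05%, 3.23% and 4.4% of members compare with 0.969%, 1.49% and 2.78% of all genes. With a pseudocount of 5 FPKM 14 members were highest at 6 h with a 4-fold range, 4.11% against 1.34% at the same level.

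**Figure D3:**
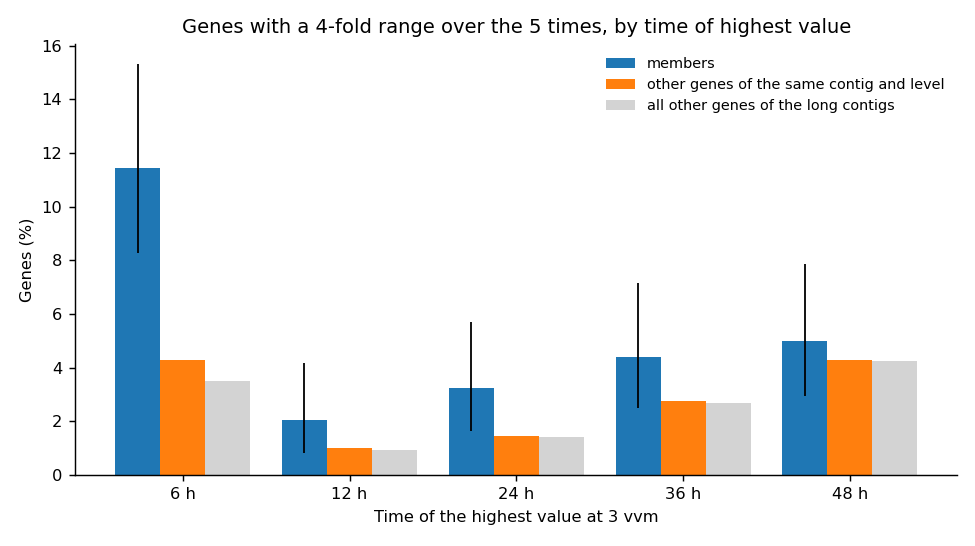
Share of genes (%) that ranged over 4-fold or more in the 5 libraries at 3 vvm, by the time of their highest value, for members (bars with exact 95% binomial intervals), for genes of the same contig and level, and for all other genes of the long contigs. At 6 h the member bar stands at 11.4% and the others at 4.28% and 3.51%, and at 48 h the bars lie between 4.26% and 4.99%.

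The members highest at 6 h were moderately expressed there. Those 39 genes had a median of 20.2, 5.02, 5.57, 1.98 and 2.43 FPKM over the time course and 8.34 FPKM with 1.5 vvm. The 17 members with their peak in the 48 h library had a median of 0.626 FPKM in the 6 h library, 16.3 FPKM in the 48 h library and 35.2 FPKM with 1.5 vvm.

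The ends differed in how many members were lower or higher. The right end of unitig_5 had the largest share of lower members and that of unitig_3 the smallest, and these and the ends named next were picked after the values were seen. At the right end of unitig_5 (3392377 to 3492376), 17 of 30 members were lower at 48 h, 56.7% (37.4 to 74.5%), against 10.3% at the same level, and 4 were higher. Without this end, the members' share exceeded that of the level by 11.3 percentage points in place of 14.5. The 17 genes had a median of 10.5, 7.65, 4.06, 3.29 and 3.13 FPKM over the time course and 5.31 FPKM with 1.5 vvm. Most of them were modestly lower, with a median log2 change of -1.39, while the 2 with the largest change were at 2240 and 473 FPKM at 6 h and at 11.8 and 17.8 FPKM at 48 h.

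At the right end of unitig_3 (4027536 to 4127535), 0 of 12 members with at least 1 FPKM were lower at 48 h, where such a count allows up to 26.5%. At the same end 6 were higher, 50% (21.1 to 78.9%) against 19.6% at the same level. Of 3 neighbours from 4040629 to 4044675, picked after the values were seen, all were lower at 24 h than at 12 and 36 h. The gene from 4040629 was at 21.3, 35.6, 10.5, 71.0 and 52.8 FPKM over the time course. The one from 4043260 was at 17.3, 77.2, 21.1, 148 and 84.2 FPKM at the same times. At 1.5 vvm they had 37.5 and 33.2 FPKM.

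The right end of unitig_4 (3891387 to 3991386) held 11 members that were higher at 48 h (44% against 17.9% at the same level) and 6 that were lower (24% against 12.0%), of 25. The 11 higher genes had a median of 11.9, 50.2, 121, 43.2 and 80.6 FPKM over the time course and 91.9 FPKM with 1.5 vvm. Lower members lay toward both edges of the window and most higher ones between them, as the map of 4 ends shows.

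**Figure D4:**
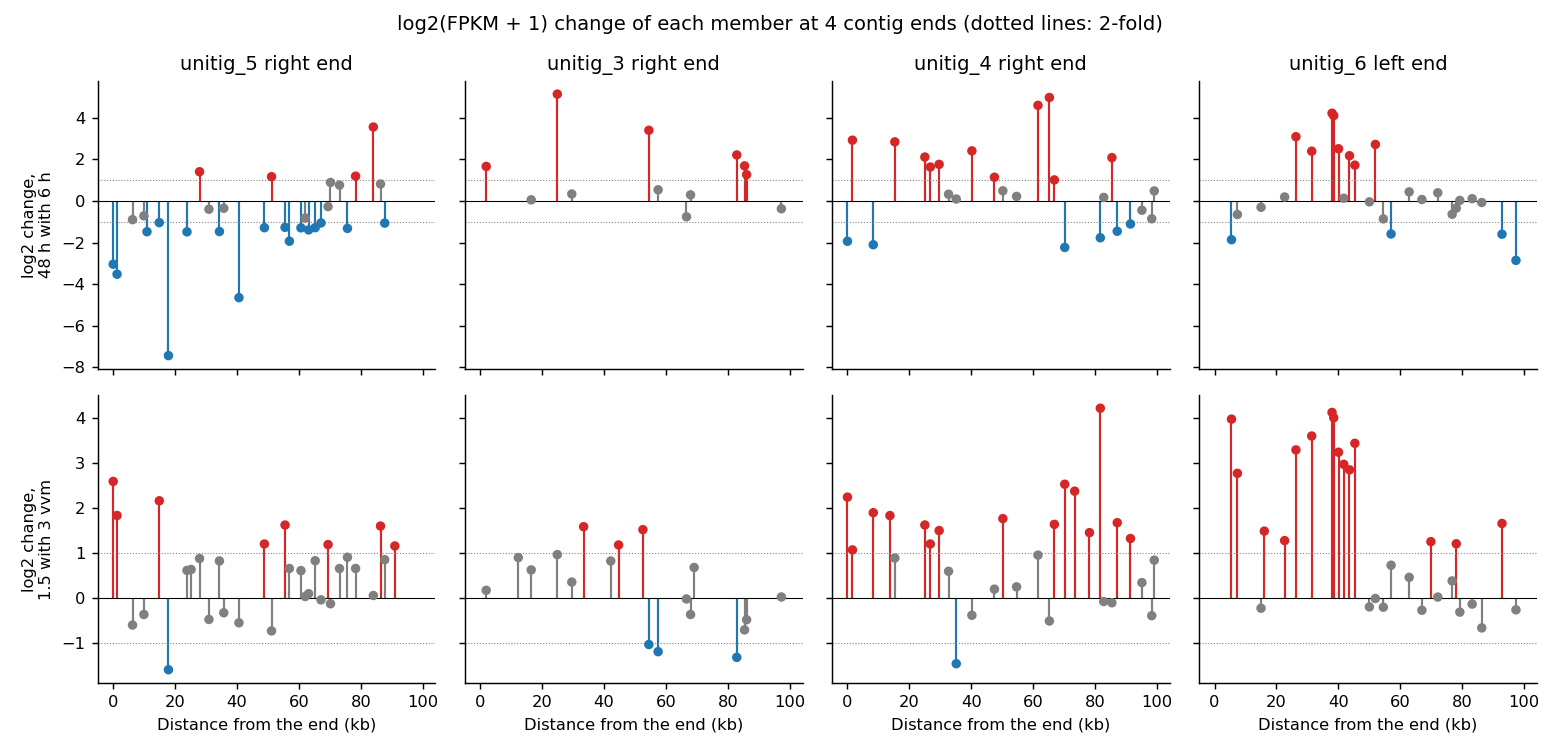
Change of each member on the log2(FPKM + 1) scale against its distance from the contig end in kb, at 4 ends, for 48 h with 6 h (top) and for 1.5 with 3 vvm (bottom). Red is at least 2-fold higher, blue at least 2-fold lower. The right end of unitig_5 holds 17 lower members in the top row, and the left end of unitig_6 holds 15 higher members in the bottom row, among them a block between 16.1 and 45.3 kb.

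Runs of neighbours were few. A run was at least 5 consecutive genes among those with at least 1 FPKM, others being passed over, all of them higher or all lower by 2-fold or more. Of 23 runs in the 48 h with 6 h comparison, 3 held members, and 13 of 326 members (3.99%) were in one, against 1.48% of genes elsewhere. Single members were already lower (27.9% against 11.4% elsewhere) and higher (24.2% against 17.2%) more often. No share of runs at the same level was taken. The run on unitig_4 from 57969 to 73044 had 5 genes with a median of 0.158, 9.23, 11.8, 30.5 and 25.3 FPKM over the time course and 28.2 FPKM with 1.5 vvm. The run on unitig_4 from 92087 to 104151, with 3 members among its 6 genes, was lower, with medians of 187, 108, 75, 77.9 and 56.8 FPKM over the time course and 112 FPKM with 1.5 vvm. The third was part of a longer block on unitig_6, given with the air comparison.

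The genes with the largest changes were taken among members that reached 10 FPKM in one of the libraries compared. The gene evm.model.unitig_5.1067, 17.8 kb from the right end, was at 2240, 108, 14.6, 18.5 and 11.8 FPKM over the time course and 3.25 FPKM with 1.5 vvm. From 6 to 48 h it went from 6873 to 44 fragments, 188-fold lower relative to depth (counting interval 140 to 259). The gene evm.model.unitig_2.1396 (unitig_2, 4739683 to 4741051) was at 50.1, 1.77, 0.353, 0.176 and 0 FPKM over the time course and 2.35 FPKM with 1.5 vvm. With 267 fragments at 6 h and 0 at 48 h it was 107-fold lower against the 3 fragments that a count of 0 allows in that library, and the lower limit of the exact counting interval was 86.6-fold.

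In the other direction, evm.model.unitig_2.1400 is the gene from 4754900 on unitig_2 given above. It had 187 fragments in the 6 h library and 9126 in the 48 h library, 40.5-fold higher relative to depth (35.0 to 47.1). The gene evm.model.unitig_4.13 (unitig_4, 67142 to 67336) is short and had 0, 1, 3, 14 and 10 fragments over the time course and 11 with 1.5 vvm. Set against 3 fragments in place of 0, it was 2.77-fold higher at 48 h, the lower limit of the exact counting interval was 1.86-fold, and its 188 FPKM rest on 10 fragments.

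**Figure D5:**
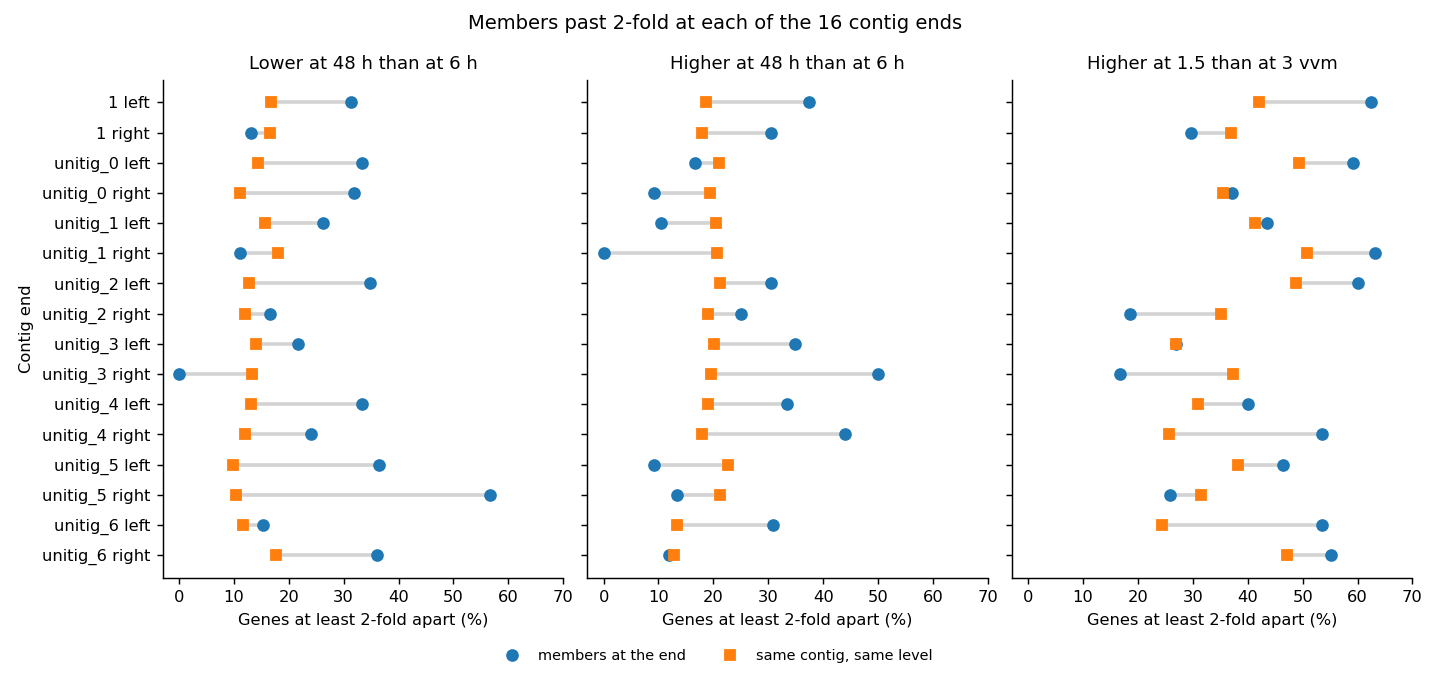
Share of members at least 2-fold apart (%) at each of the 16 contig ends (circles) beside the share in genes of the same contig and level (squares). Circles lie to the right of squares at 13 ends for genes lower at 48 h, at 9 ends for genes higher at 48 h and at 12 ends for genes higher at 1.5 vvm.

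The second comparison asked whether members differed between air supplies at 48 h. Members were higher at 1.5 than at 3 vvm far more often than all genes, and the genes of the same level lay much closer to them. Of 432 members in both tables, 407 had at least 1 FPKM in either library and 176 were at least 2-fold higher, 43.2% (38.4 to 48.2%). The share was 22.1% over all genes tested and 37.3% in genes of the same contig and level, and it was above that of the level at 12 of 16 ends. The FPKM at 3 vvm come from the other table. Of the 176, 107 were below 1 FPKM at 48 h and 3 vvm. These passed through the 1.5 vvm library alone, so they had to differ in this direction. Set against every member in both tables, the 176 were 40.7% of 432, against 36.4% at the same level and 20.9% of genes elsewhere. Lower at 1.5 vvm were 11 members, 2.70% (1.36 to 4.78%), against 2.16% at the same level and 2.83% of all genes.

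The higher members came from low and from high levels. Those of 1 to 10 FPKM in the higher library numbered 122 of 240, 50.8% against 42.7% elsewhere. At 10 to 50 FPKM the shares were 31.9% and 19.6%, and at 50 FPKM or more 25 of 76 members were higher, 32.9% (22.5 to 44.6%) against 11%. Among these 25 were 8 neighbours on unitig_6 from 26302 to 47093, with 65.7 to 731 FPKM at 1.5 vvm. The 176 genes had a median of 0.522 FPKM at 48 h and 3 vvm and 4.05 FPKM at 1.5 vvm. Genes silent at 3 vvm had a level at 1.5 vvm wherever they lay: the 53 members that stayed under 0.5 FPKM throughout the time course had a median of 1.48 FPKM there, and the 389 such genes elsewhere had 1.58 FPKM. Their median together, 1.57 FPKM, was taken off the 1.5 vvm library as an alternative. What gives silent genes this level was not tested.

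With that median taken off, 89 of 320 members were higher (27.8%, 23.0 to 33.1%), against 23.0% at the same level and 15.9% of all genes. Lower were 34 members, 10.6% (7.47 to 14.5%), against 7.71% at the same level and 5.56% of all genes. At 50 FPKM or more 25 of 76 members were again higher, 32.9% against 10.5% elsewhere. With FPKM rescaled to a common sum, 145 of 403 members were higher (36.0% against 31.3% at the same level and 16.4% elsewhere). Lower were 16 (3.97% against 3.47% at the same level and 4.78% elsewhere). The median log2 change of all genes was then 0.04 in place of 0.28. The 1.5 vvm library was also set against 24 h at 3 vvm, which its own table holds, so time differed along with air. This took in members that only that table lists. None of these was detected at 24 h, so each with at least 1 FPKM at 1.5 vvm had to count as higher. Of 441 members 203 were higher at 1.5 vvm, 46.0% against 44.4% at the same level and 23.6% of genes elsewhere.

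The longest run that held members lay at the left end of unitig_6. The run from 16077 to 47093 had 10 genes, all members, with a median of 0.986, 2.24, 5.39, 4.13 and 13.2 FPKM over the time course and 148 FPKM with 1.5 vvm. After that median was subtracted, the 8 genes from 26302 to 47093 were still each at least 2-fold higher, with log2 changes between 2.84 and 4.12, and this was then the single run holding members. Within it the gene from 26302 to 31006 had 20 fragments in the 6 h library, 367 by 48 h and 4035 with 1.5 vvm. Its neighbour from 31395 to 36734 had 1, 129 and 2086 fragments. The gene from 41749 to 42801 was at 84.1, 93.2, 111, 101 and 92.2 FPKM over the time course and 731 FPKM with 1.5 vvm, so it was steady at 3 vvm while its neighbours were not. Of the 26 members at this end with at least 1 FPKM at 6 or 48 h, 8 were higher at 48 h than at 6 h, 30.8% against 13.3% at the same level.

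The other 7 runs that held members had lower levels at 1.5 vvm, apart from one. On unitig_4 from 92087 to 102793, 5 genes with 3 members were at 181 FPKM at 1.5 vvm and 59.5 at 3 vvm, in the stretch that was lower at 48 h than at 6 h. The others had medians between 2.12 FPKM (unitig_0, 17335 to 43067) and 10.4 FPKM (unitig_6, 3210999 to 3227223) at 1.5 vvm. Their gene with the fewest fragments had between 5 and 13. In all, 45 of 407 members were in such runs, 11.1% against 1.75% of genes elsewhere. With the silent-gene median taken off, 8 of 320 members (2.50%) were, against 0.755%. Single members were already higher more often, 43.2% against 21.2% elsewhere, and 27.8% against 15.5% with that median taken off. That alone makes runs more frequent, and no share of runs at the same level was taken.

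At the right ends of unitig_3 and unitig_2 the share that was higher at 1.5 vvm lay below that of the level, which was within the interval at both. The shares were 3 of 18 (16.7%, 3.58 to 41.4%) against 37.3%, and 5 of 27 (18.5%, 6.30 to 38.1%) against 35.1%. The right end of unitig_3 also held 3 of the 11 members that were lower. The right end of unitig_4 had 15 of 28 members higher, 53.6% (33.9 to 72.5%) against 25.7%. Windows of 100 kb inside the contigs, not matched on level, had a 95th percentile of 45% and a highest share of 66.7%. Above that percentile lay 8 ends.

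Among named genes, evm.model.unitig_2.1400 was also the most strongly lower member at 1.5 vvm, with 2041 fragments against 9126 at 3 vvm, 4.92-fold lower (4.69 to 5.16). Near the left end of contig 1, the gene spanning 97430 to 99016 had 5.17, 9.91, 10.1, 18.2 and 29.7 FPKM over the time course and 8.62 FPKM with 1.5 vvm, 3.69-fold lower at 1.5 than at 3 vvm (2.86 to 4.80). Higher at 1.5 vvm was evm.model.unitig_6.10, from 37962 to 38326 in the block on unitig_6, with 10 fragments at 3 vvm and 198 at 1.5 vvm, which is 18-fold more relative to depth (9.59 to 38.1). The short gene evm.model.unitig_4.1115 (unitig_4, 3909309 to 3909681) had 1 fragment at 6 h, 0 from 12 to 48 h at 3 vvm and 11 at 1.5 vvm. Against 3 fragments in place of 0 at 3 vvm it was 3.33-fold higher, and the lower limit of the exact counting interval was 2.28-fold.

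Members that were lower at 36 h than at 6 h were often higher at 1.5 vvm. Of 87 such members, 46 had a value at 1.5 vvm that was 2-fold higher or more, 52.9% (41.9 to 63.7%), against 63 of the other 235 members, 26.8%. Elsewhere the shares were 44.4% of 924 genes and 13.6% of the rest. These comparisons have no library in common, but the 87 and the other 235 members were not matched on level. Whether a low level late in the time course accounts for the difference was not tested. With the silent-gene median taken off, 30 of 72 members lower at 36 h (41.7%) and 45 of the other 219 were higher. Elsewhere the shares were then 37.2% of 878 genes and 10.7% of the other 7651, so the contrast was not particular to members. Whether members differ from genes elsewhere in this was not tested.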

How the data were processed

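Libraries were prepared with an Illumina TruSeq RNA kit, per the labels' protocols. The FPKM values are the authors' own, as deposited. TopHat2 2.0.9 is named in the submitters' processing notes, and so is Cufflinks 2.1.1. No source used here gives the genome build, the annotation or the use of strand, and genes sharing reads with near-identical copies could not be told apart. Columns with a count header hold a signal, deposited by the authors after scaling to 1 total per table. Dividing by each column's smallest step gave whole fragments, within 0.1, for 100% of values under 1000 fragments. The 4 further value columns of the second table were not used.

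The tables were merged by locus, and the 24 h FPKM were identical at 9930 of 9930 shared loci. Starts were raised by 1, which made 46.9% of spans multiples of 3 against 26.3% as given. Identifiers matched 0 of 14404 reference genes of assembly ASM285v2.

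Changes are log2(FPKM + 1), for genes reaching 1 FPKM in either library. The same-level share is the mean, over members, of the share in genes of the same contig more than 100 kb from its ends and in the same band of mean FPKM, of 10 bands cut at quantiles per contig, with unlisted values as 0. Intervals are exact (Clopper-Pearson). The trend used edgeR 4.0.16 in R 4.3.3, with TMM, at least 15 fragments in total and 3 residual degrees of freedom, and it called 874 genes as rising and 858 as falling of 8987.

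Named genes were the 2 highest and 2 lowest changes per comparison among members of at least 10 FPKM. Members, ends and lists were chosen with earlier results of these data known. Alternatives were other pseudocounts, filters, scalings, windows, folds, level bands and reference libraries, and leaving out each end.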

Additional observations from a re-analysis of the deposited data

Results flagged for a closer look

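A signal appeared in members that neither comparison used. Beside the 1.5 vvm library 53 members were listed that the time course table lacks, all at 0 in the 24 h library, which both tables hold. The 251 genes elsewhere that were listed in this way were also all at 0 there. The median of the 53 members was 1.32 FPKM at 1.5 vvm, or 3 fragments. That is below the 1.57 FPKM of genes silent at 3 vvm and the 1.99 FPKM of those 251 genes. The next shares are those of the 53 members. They were 10.9% of the 486 members (8.28 to 14.0%), against 251 genes or 2.57% elsewhere (2.27 to 2.91%), and 28.6% of the genes in the outer 20 kb. Members had lower levels than genes elsewhere, and no share at the same level was taken for this count. Only 26 exceeded 3 fragments, the limit for a count of 0, and 1 was at 10 FPKM or more. Counted as 0 at 3 vvm, each of the 53 with at least 1 FPKM at 1.5 vvm had to count as 2-fold higher. The members higher at 1.5 vvm were then 210 of 441, 47.6% against 42.0% at the same level and 22.8% elsewhere. The rise in this count was thus fixed in advance.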

How the results depend on the processing

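Values here are the share of members past the limit minus that in genes of the same contig and level, in percentage points. For members lower at 48 h than at 6 h it was 14.5 and stayed above 0 under 16 alternatives. It was 7.22 with a pseudocount of 5 FPKM, 9.25 with a window of 200 kb, 7.03 at 4-fold, 7.93 with 12 h as the reference and 5.23 for the edgeR trend, and 11.3 to 15.9 without single ends. For members higher at 48 h it was 5.39, with 12.6 at 10 FPKM or more, 10.5 with a window of 50 kb, 0.626 for the edgeR trend and 3.66 to 6.76 without single ends. For members higher at 1.5 vvm it was 5.93, with 0.629 at a pseudocount of 5 FPKM, 12.8 at 10 FPKM or more, -0.589 at 4-fold and 4.22 to 7.54 without single ends. For members lower at 1.5 vvm it was 0.540, with -0.0854 at 4-fold, 2.92 with the silent-gene median taken off and -0.0856 to 0.750 without single ends, the lowest without the right end of unitig_3. For genes highest at 6 h it was 7.16, with 2.77 at a pseudocount of 5 FPKM, 5.74 without the 48 h library and 3.42 for genes highest at 12 h without the 6 h library. The median level elsewhere was 7.99 times that of members, 4.36 times with a window of 200 kb and 7.49 to 8.39 times without single ends. The causes were not tested. The median member had 11 to 14 fragments at 3 vvm, which limits what single members can show. No paired analysis was possible because each group had 1 library.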
